A study of Mus musculus with 4 samples.

Results

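The D cyclins, their kinases CDK4 and CDK6, the pocket proteins and the E2F factors that work with them were followed in mouse mammary tumours with and without a Cdc25a transgene. The set holds 10 genes, Ccnd1, Ccnd2, Ccnd3, Cdk4, Cdk6, Rb1, Rbl1, Rbl2, E2f4 and E2f5. Probes outside the array's controls were taken where the array's own gene name is one of these symbols, which gave 11 probes of 7 genes among 41174 probes under 38354 gene names. Cdk4, Rbl1 and E2f4 had no probe under their symbol, and 1 probe of each was found through its accession in the RefSeq gene table, so 14 probes are described. All 14 were among the 37177 probes kept after a filter on dim spots, and 37174 of those were tested.

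The tumours came from mammary glands of female FVB/N mice aged 26 weeks, at the early stage T1. The 2 mice of one genotype carried MMTV-cdc25a together with MMTV-neu (Cdc25a;neu below), and the 2 mice of the other carried MMTV-neu alone (neu). Neu, the rodent form of the receptor Erbb2, was thus present in all 4 tumours, and the MMTV promoter, which is active in mammary epithelium, drove both transgenes. Each Cdc25a;neu tumour was hybridised against 1 neu tumour on 2-colour Agilent arrays, once in each dye orientation. This gave 4 arrays from 2 mouse pairs, and the pair is the replicate (n = 2). All values are log2 ratios of Cdc25a;neu over neu unless a level is named. A level is the log2 intensity of a probe in 1 tumour after normalization, and levels of different probes are not compared with each other. The tumours of a pair were read on the same arrays, and the pairs on different arrays. A difference in level between pairs therefore cannot be told apart from a difference between arrays. Whether the levels of the genotypes overlap across pairs carries the same limit.

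D-type cyclins bind CDK4 or CDK6 in G1 and start the phosphorylation of the retinoblastoma protein RB1 and its relatives p107 (Rbl1) and p130 (Rbl2). Unphosphorylated pocket proteins hold E2F factors and keep S-phase genes silent, with E2F4 and E2F5 as the usual repressor partners of p107 and p130. Mammary tumours driven by neu are known to depend on cyclin D1, and the phosphatase CDC25A acts mainly on CDK2 and also on CDK4 and CDK6 by removing inhibitory phosphates. Transcript levels say nothing of these phosphorylations.

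Rbl1 is itself a known E2F target, and its promoter is shown because it alone among the members held an E2F-type motif in the window searched. It stands beside the 2 of the 4 named G1/S target genes (described further on) that also held one before the start. Promoter windows of 250 bases before and 50 bases after the start came from RefSeq (GRCm38.p6), which held windows for 5 of the 10 members (Ccnd3, Cdk4, Cdk6, Rbl1, Rbl2). The motifs TTTCGCGC, TTTGGCGC, TTTCCCGC and TTTGCCGC were searched on both strands, and they may overlap one another. At least 1 of them was found in 744 of 32851 windows, or 2.26%, and in 8 of the 19 measured G1/S target genes that had a window. The capitals mark the motif or its reverse complement, and each sequence is on the strand of its gene and ends before the start.
Rbl1, chr2:157204535-157204572, minus strand: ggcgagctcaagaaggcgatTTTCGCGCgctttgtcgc
Mcm6, chr1:128359725-128359772, minus strand: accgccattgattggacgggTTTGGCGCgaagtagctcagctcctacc
Mcm7, chr5:138172021-138172068, minus strand: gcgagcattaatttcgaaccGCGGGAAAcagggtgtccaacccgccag
The Rbl1 motif ended 10 bases before the start, that of Mcm6 39 bases before it and that of Mcm7 157 bases before it. Mcm6 held 2 more, overlapping motifs upstream. A match describes letters in these windows and not binding.

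Of the 14 probes, 1 stood well away from equal levels on every array, a Ccnd2 probe at 2.47-fold higher in Cdc25a;neu, and the 2 other Ccnd2 probes lay near 0. The other 13 probes had mean log2 ratios between -0.31 and 0.23. No member probe passed limma's test with Benjamini-Hochberg adjustment over all probes (0 of 14), and 0% of all 37174 probes did, with a lowest adjusted p of 0.245. At an unadjusted p under 0.05 there was 1 member probe, Ccnd2 A_52_P514391, against 9.43% of all probes.

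The sign of the ratio was the same on all 4 arrays for 3 of the 14 probes. A Ccnd2 probe and a Cdk6 probe were higher in Cdc25a;neu on every array, a pattern that 14.1% of all probes had. The E2f5 probe was lower on every array, as were 12.6% of all probes. Both arrays of one pair lay above 0 and both of the other below it for 3 member probes, 2 of Ccnd2 and 1 of Rb1, against 13.5% of all probes. When the array of pair 1 with Cdc25a;neu in Cy5 was left out, 8 member probes had 1 sign on the remaining arrays. That is a looser condition than 1 sign on all 4, and its share over all probes was not computed. With median centring in place of loess 1 member probe had 1 sign on all 4, where 4.56% of all probes were higher and 3.48% lower. The median size of the mean ratio was 0.0902 over the members and 0.0623 over all probes, and the median SD between pairs was 0.0958 against 0.0653. The median size of a member's mean ratio was thus close to the median SD between pairs.

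**Figure D1:**
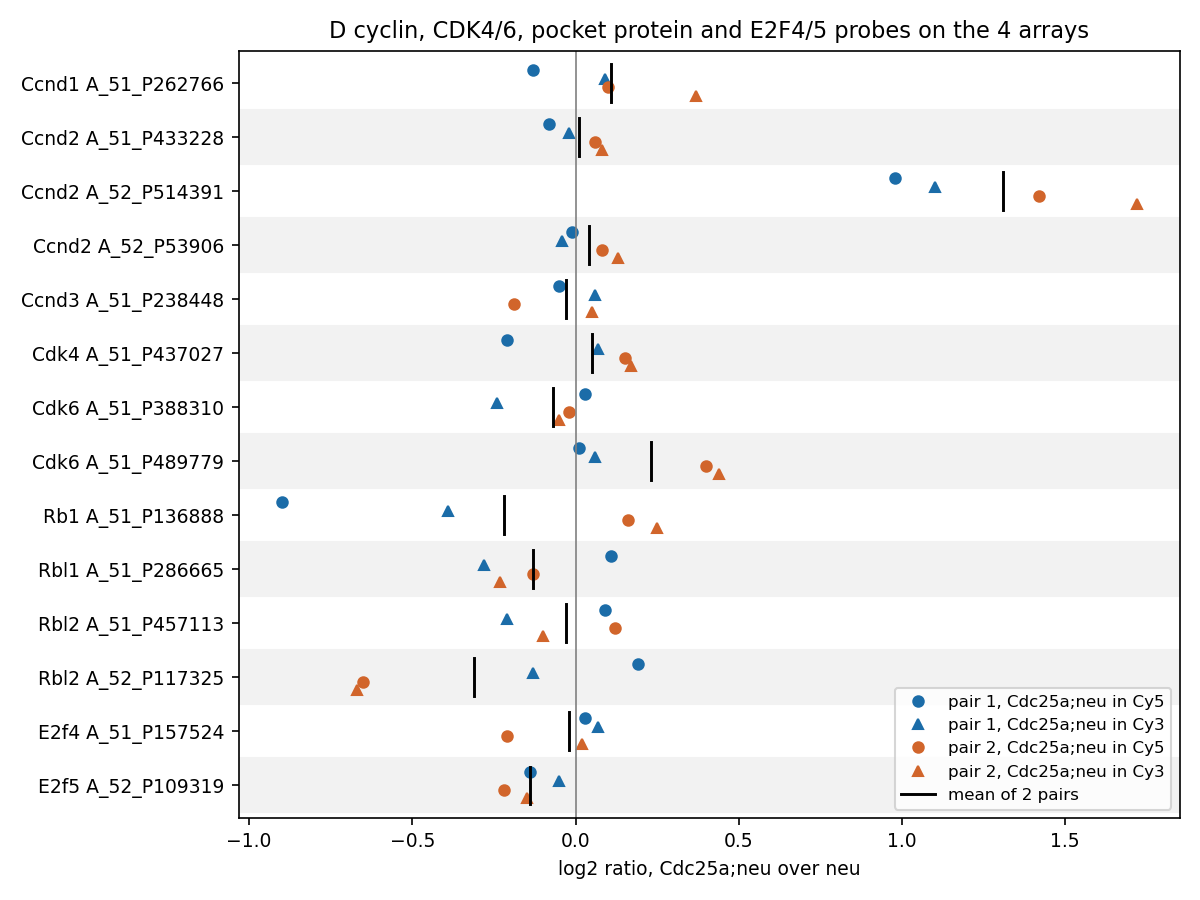
Each row is 1 probe, the x axis is the log2 ratio of Cdc25a;neu over neu, circles are arrays with Cdc25a;neu in Cy5, triangles arrays with it in Cy3, blue is pair 1, orange is pair 2, and the black bar is the mean of the 2 pairs. Only Ccnd2 A_52_P514391, at 0.98 to 1.72, lies far to the right on all arrays, while Rb1 lies left of 0 in pair 1 and right of it in pair 2.

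Cyclin D1, the main D cyclin of mammary epithelium, did not differ beyond the spread between pairs. The Ccnd1 probe gave -0.13 and 0.09 on the arrays of pair 1, and 0.10 and 0.37 on those of pair 2. Its level was 10.71 and 10.92 in the Cdc25a;neu tumours and 10.72 and 10.68 in the neu tumours. The level of the Cdc25a;neu tumour of pair 2 was thus above the other 3, which lay within 0.04 of each other. The mean was 0.11 ± 0.18 (SD, n = 2 pairs), with a 95% interval of -0.19 to 0.41 and a limma adjusted p of 0.729. Its spots were well above background in all tumours, with mean signals of 779 to 3190 over local backgrounds of 40 to 62.

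Cyclin D2 was read by 3 probes that the array assigns to the same transcript, and they disagreed. Probe A_52_P514391 gave 0.98 and 1.10 across the dye swap of pair 1, against 1.42 and 1.72 across that of pair 2. Its levels were 12.59 and 13.26 in the Cdc25a;neu tumours and 11.55 and 11.69 in the neu tumours, so the genotypes did not overlap. The difference was 2.06-fold in pair 1 and 2.97-fold in pair 2, with a mean of 1.31 ± 0.38 (SD, n = 2 pairs), a 95% interval of 0.75 to 1.87 for this probe taken alone, and a limma adjusted p of 0.455. The limma adjusted p ranged from 1.87e-13 with median centring to 0.689 with separate channels and no pairing. With median centring 1109 probes passed in all. With n = 2 pairs a probe has 1 residual degree of freedom, so the p leans on a variance that limma pools over all probes. The value of 1.87e-13 is thus not evidence of that strength from 2 pairs. The mean itself lay between 1.04 and 1.57 under every alternative and left-out array or pair.

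The other Ccnd2 probes did not show this difference. Probe A_51_P433228 gave -0.08 and -0.02 on the arrays of pair 1, then 0.06 and 0.08 on those of pair 2, with a mean of 0.01 ± 0.09. Probe A_52_P53906 gave -0.01, -0.04, 0.08 and 0.13 in the same order, with a mean of 0.04 ± 0.09. Both had 1 sign in pair 1 and the opposite sign in pair 2. Their 95% intervals, -0.18 to 0.21 and -0.16 to 0.24, did not reach the lower end of the interval of A_52_P514391. For A_51_P433228 the levels were 6.29 and 6.77 in Cdc25a;neu and 6.34 and 6.70 in neu, and for A_52_P53906 they were 6.83 and 7.14 against 6.86 and 7.04. For both probes the genotypes overlapped, and pair 2 was above pair 1 in each genotype. Mean signals were 73.8 to 157 for A_51_P433228 and 85.1 to 205 for A_52_P53906, over backgrounds of 38.5 to 63. Those of A_52_P514391 were 1540 to 15700. All 3 probes were well above background in both channels on all 4 arrays, and none was saturated.

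**Figure D2:**
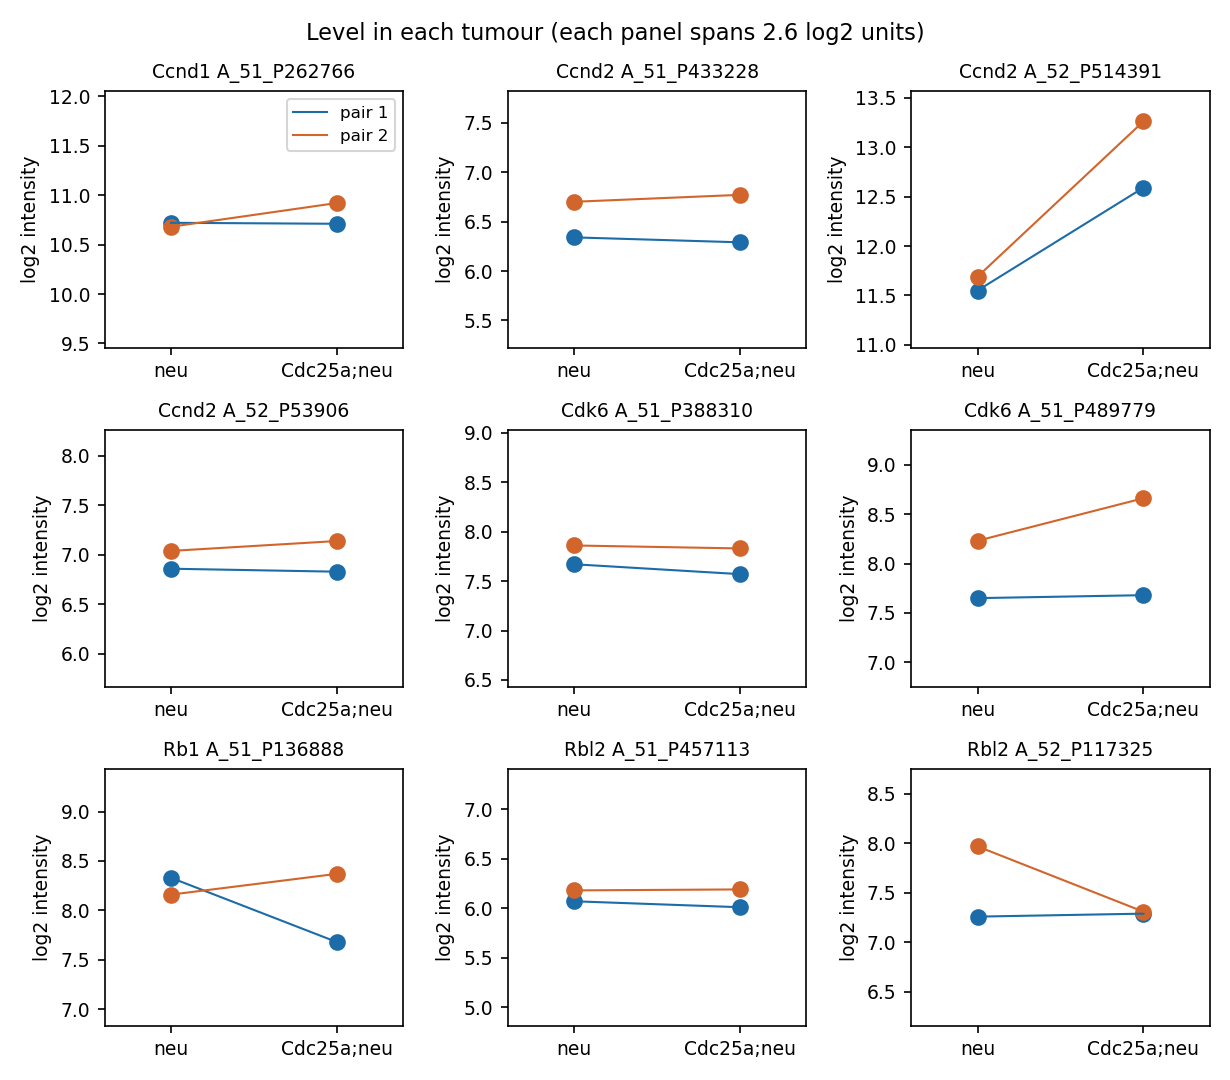
Each panel is 1 probe, the y axis is the log2 intensity, the x axis is the genotype, each point is 1 tumour, and lines join the tumours hybridised together (blue, pair 1, and orange, pair 2). The lines of Ccnd2 A_52_P514391 both go up, from 11.55 to 12.59 and from 11.69 to 13.26, while those of Rb1 cross.

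The ratios of Ccnd2 probe A_52_P514391 were shared closely by many probes of other genes. On every array, 102 other kept probes lay within 0.25 of it. They carried 51 gene symbols, and their mean ratios ran from 1.14 to 1.47. Most of them were bright, with mean log2 signals of 9.38 to 14.73 and a median of 11.47. Over all probes the median was 7.26 and the 95th percentile 10.62, and the Ccnd2 probe had 12.26. These signals describe how bright the spots were and are not compared as levels of the genes. The nearest with a symbol were probes of Ncam1, a neural cell adhesion molecule (1.00, 1.10, 1.37 and 1.67 on the 4 arrays), 4632427E13Rik (mean 1.33), the transcription factor gene Elf4 (mean 1.34) and the olfactory receptor gene Olfr971 (mean 1.34). Among all probes, 99 had a log2 ratio of at least 1 in both pairs (0.266%), and 73 of these 99 belonged to the 102, which is 73.7%. For 11 of the genes, 18 further probes were measured. Those 18 had a median ratio of 0.00, from -0.30 to 0.22, and 0 of them reached 1. Ncam1's other probes gave -0.01 and 0.06. For Ccnd2 and these 11 genes alike, 1 probe lay above 1 and the gene's other probes lay near 0.

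**Figure D3:**
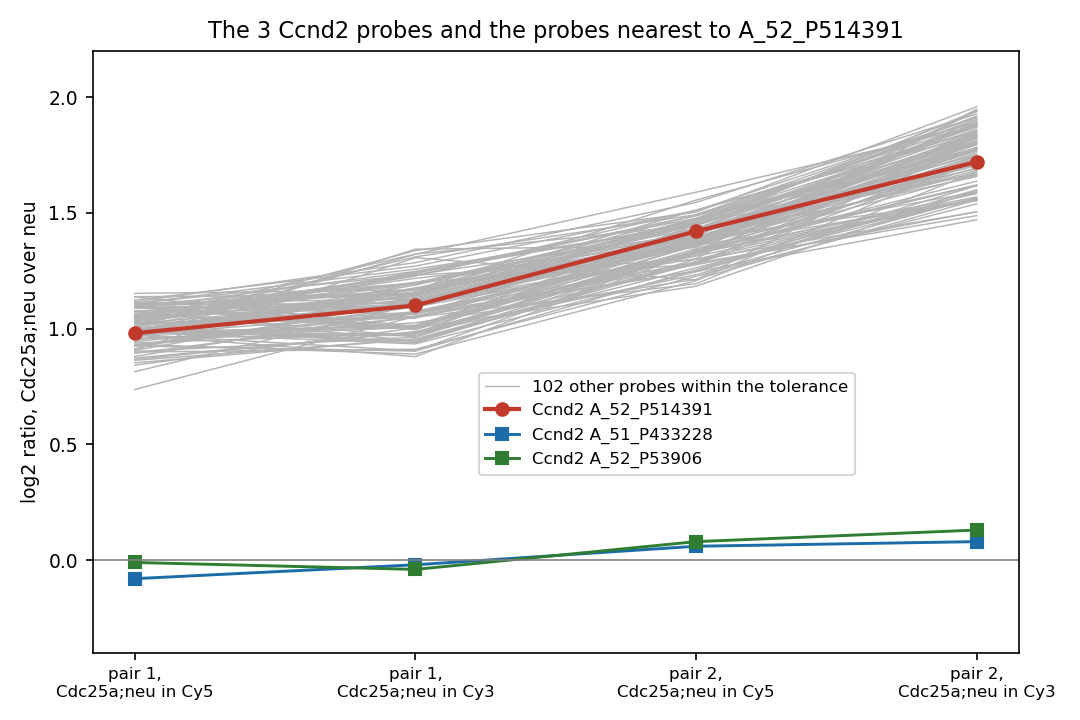
The x axis gives the 4 arrays, the y axis the log2 ratio of Cdc25a;neu over neu, red is Ccnd2 A_52_P514391, blue and green are the other Ccnd2 probes, and each grey line is 1 of the 102 probes within 0.25 of the red one on every array. The grey lines run with the red one from about 1 in pair 1 to its 1.72 on the last array, and the blue and green lines stay between -0.08 and 0.13.

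Cyclin D3, the D cyclin best known from lymphoid and differentiating cells, lay near equal levels. The Ccnd3 probe gave -0.05 and 0.06 across the dye swap of pair 1, against -0.19 and 0.05 across that of pair 2. Its levels were 8.68 and 8.96 in Cdc25a;neu and 8.68 and 9.03 in neu. The genotypes overlapped. The levels of each pair, which were read on the same arrays, lay closer to each other than to those of the other pair. The mean was -0.03 ± 0.05, with a 95% interval of -0.20 to 0.14 and a limma adjusted p of 0.864.

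The kinase genes differed little between genotypes at most probes. Cdk4, the main partner of cyclin D1, gave -0.21 and 0.07 on the arrays of pair 1, then 0.15 and 0.17 on those of pair 2, with levels of 8.12 and 8.24 in Cdc25a;neu and 8.19 and 8.08 in neu. Its mean was 0.05 ± 0.16, with a 95% interval of -0.23 to 0.32. Cdk6, the second D cyclin kinase, had 2 probes under its symbol. Probe A_51_P388310 gave 0.03, -0.24, -0.02 and -0.05, with a mean of -0.07 ± 0.05 and a 95% interval of -0.24 to 0.10. Probe A_51_P489779, described on the array as a cDNA of unknown product, gave 0.01 and 0.06 across the dye swap of pair 1, against 0.40 and 0.44 across that of pair 2. Its levels were 7.68 and 8.66 in Cdc25a;neu and 7.65 and 8.23 in neu, so the genotypes overlapped although each Cdc25a;neu tumour was above its partner. The mean of 0.23 ± 0.27 had a 95% interval of -0.19 to 0.65 and a limma adjusted p of 0.643.

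A further 4 kept probes carry a description naming Cdk6 but not its symbol, and they are given only for comparison. Those described as Cdk6 gave means of 0.04 (A_51_P110421) and 0.10 (A_52_P417489). Those described as similar to it gave 0.00 (A_52_P249283) and -0.20 (A_52_P547764). Among these 6 probes, the 0.40 and 0.44 of A_51_P489779 in pair 2 had no counterpart.

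Rb1, which encodes the retinoblastoma protein, had opposite signs in the pairs. Its probe gave -0.90 and -0.39 on the arrays of pair 1, then 0.16 and 0.25 on those of pair 2. Rb1 was 1.57-fold lower in the Cdc25a;neu tumour of pair 1 and 1.15-fold higher in that of pair 2. The levels were 7.68 and 8.37 in Cdc25a;neu and 8.33 and 8.16 in neu, so the Cdc25a;neu tumours were the lowest and the highest of the 4. The mean of -0.22 ± 0.60 (SD, n = 2 pairs) had a 95% interval of -1.10 to 0.66 and a limma adjusted p of 0.811, and Rb1 had the widest spread between pairs of the 14 probes. The arrays of pair 1 also differed from each other by more for Rb1 than for any other member.

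Rbl1, which encodes p107, gave 0.11 and -0.28 across the dye swap of pair 1, against -0.13 and -0.23 across that of pair 2. Its levels were 7.92 and 7.93 in Cdc25a;neu and 8.0 and 8.11 in neu, so both Cdc25a;neu tumours lay below both neu tumours by a small step. The mean was -0.13 ± 0.06, with a 95% interval of -0.31 to 0.04 and a limma adjusted p of 0.569. It stayed between -0.23 and -0.01 under every alternative and left-out array or pair.

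Rbl2, which encodes p130, the pocket protein of resting cells, had 2 probes that differed in pair 2. Probe A_52_P117325 gave 0.19 and -0.13 on the arrays of pair 1, then -0.65 and -0.67 on those of pair 2, where Rbl2 was 1.58-fold lower. Its levels were 7.29 and 7.31 in Cdc25a;neu and 7.26 and 7.97 in neu. The neu tumour of pair 2 was the only one apart from the rest, and the mean was -0.31 ± 0.49, with a 95% interval of -1.04 to 0.41 and a limma adjusted p of 0.694. Probe A_51_P457113 gave 0.09, -0.21, 0.12 and -0.10, so its sign followed the dye and not the pair. Its mean was -0.03 ± 0.05. It was dim, with mean signals of 64.8 to 96.2, and was well above background on only 2 of the 4 arrays in each genotype's channel.

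E2f4 and E2f5 encode the E2F factors that carry p107 and p130 to promoters. E2f4 gave 0.03 and 0.07 across the dye swap of pair 1, against -0.21 and 0.02 across that of pair 2, with levels of 7.31 and 7.54 in Cdc25a;neu and 7.26 and 7.63 in neu. Its mean was -0.02 ± 0.10, and the genotypes overlapped. E2f5 gave -0.14 and -0.05 on the arrays of pair 1, then -0.22 and -0.15 on those of pair 2, lower on all 4 arrays. Its levels were 7.44 and 7.24 in Cdc25a;neu and 7.54 and 7.42 in neu, so each Cdc25a;neu tumour was below its partner, but the genotypes overlapped. The mean was -0.14 ± 0.06, with a 95% interval of -0.31 to 0.04 and a limma adjusted p of 0.554, and it lay between -0.21 and -0.09 under every alternative and left-out array or pair.

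The wider pathway was described by lists of genes, each read at its brightest kept probe. None of their genes passed limma's test (0 in each list). Among 22 measured E2F target genes of G1/S, which make replication proteins and nucleotides, 17 were higher in Cdc25a;neu on all 4 arrays (77.3%, against 14.1% of all probes) and 0 were lower. Their median was 0.30 in pair 1 and 0.26 in pair 2, against a median of 0.00192 for the mean ratio over all probes. An unadjusted p under 0.05 in limma was found for 15 of the 22, against 9.43% of all probes. The shares over all probes include dim probes and are not limited to each gene's brightest probe. A share over probes of like brightness was not computed. Prim1, the DNA primase subunit, gave 0.51, 0.46, 0.46 and 0.59 on the 4 arrays. Ung, which removes uracil from DNA, had a mean of 0.47 ± 0.23. The replicative helicase genes Mcm7 and Mcm6 had means of 0.46 ± 0.05 and 0.46 ± 0.01. With median centring, 3 of the 22 were higher on all 4 arrays, where 4.56% of all probes were, and the medians were 0.28 and 0.45. Gins1 and Gins2 were not measured.

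In each of the other pathway lists at most 3 genes were higher on all 4 arrays and at most 3 were lower. Over all probes those shares were 14.1% and 12.6%, and the counts of these short lists are given as descriptions beside them. Among 6 measured genes of the other E2F factors and their DP partners (E2f3 and E2f8 were not measured), 0 were higher and 1 was lower on all arrays. The dimer partner gene Tfdp2 had a mean of -0.21 ± 0.17 and Tfdp1 of 0.08 ± 0.11, while E2f2 went from -0.47 in pair 1 to 0.36 in pair 2 and E2f7 had a mean of -0.05. Among 7 CDK inhibitor genes, 1 was higher and 1 lower on all arrays. Cdkn1c (p57) gave -0.53 in pair 1 and -0.51 in pair 2, and Cdkn1a (p21) gave 0.23 and 0.66. Cdkn2b (p15), an inhibitor of CDK4 and CDK6, gave -0.18 and 0.85, so it had opposite signs in the pairs. Cdkn2a gave -0.05 and 0.35, but its arrays of pair 1 gave 0.10 and -0.19 across the dye swap. The Cdkn2a probe was well above background on only 3 of the 4 arrays in each genotype's channel.

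On the CDK2 side with the CDK-activating kinase, 2 of 8 genes were higher and 0 lower on all arrays. Cyclin A2 (Ccna2) had a mean of 0.32 ± 0.24 and Cdk7 of 0.22 ± 0.10, but a second Cdk7 probe gave -0.11. Cdk2 had a mean of -0.15 ± 0.42, with a second probe at 0.09, and Mnat1 of -0.13 ± 0.23, with its 2 further probes both at 0.03. Cdc25a itself gave 0.09 and 0.01 in the pairs, with a second probe at a mean of 0.11, and the labels do not say whether its probe reads the transgene. Of 8 MuvB and MYB genes, whose products form the DREAM complex with p107 or p130 or act with MYB factors in its place, 1 was higher and 3 were lower on all arrays. Rbbp4 gave -1.53 in pair 1 and -0.01 in pair 2, where its arrays gave 0.50 and -0.52 across the dye swap. A second Rbbp4 probe had a mean of -0.02. Lin52 had a mean of -0.30 ± 0.28, Lin37 of -0.14 ± 0.08 and Rbbp7 of 0.17. Of 6 genes of D cyclin turnover, 0 were higher and 3 lower on all arrays, the latter against 12.6% of all probes. The F-box gene Fbxo31, whose product takes part in cyclin D1 degradation, gave -0.43 and -0.38, Cul4a gave -0.14 and -0.40, Ambra1 -0.08 and -0.34, and Fbxo4 -0.18 and -0.16.

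**Figure D4:**
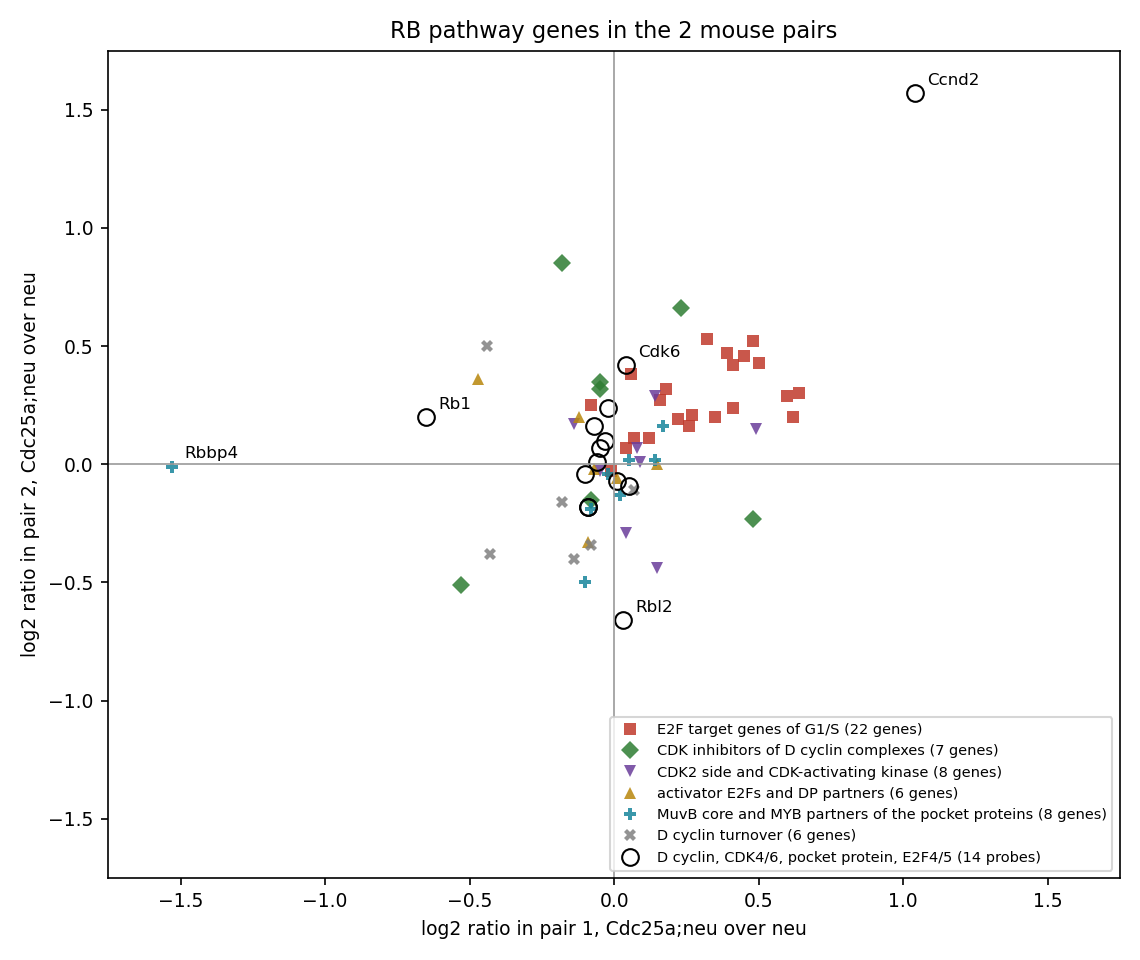
The x axis is the log2 ratio of Cdc25a;neu over neu in pair 1 and the y axis that in pair 2, with 1 symbol per gene, coloured by list, and open circles for the 14 member probes. The E2F target genes (red squares) gather in the upper right, 17 of 22 higher on all 4 arrays against 14.1% of all probes. Most open circles lie near the centre, and Rb1 and Rbl2 lie off it along 1 pair each.

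Markers of other cells also differed between these tumours. Levels of a list below are means over its genes, and in whole tissue fewer cells of a type and less RNA per cell cannot be told apart. The luminal epithelium list was well above background on all arrays for 9 of 10 genes and had median ratios of 0.09 in pair 1 and -0.12 in pair 2. Of 9 adipocyte markers, 5 were lower in Cdc25a;neu on all arrays, against 12.6% of all probes, and the list's level was 7.77 and 7.92 in Cdc25a;neu against 8.77 and 9.31 in neu, with 8 of 9 well above background everywhere. The part of this difference in the ratios of Ccnd2 probe A_52_P514391 and of the E2F target genes was not tested. In pair 2, the pair in which Rbl2 A_52_P117325 was lower, the skeletal muscle list had a median of -1.06 against 0.02 in pair 1, and its level was 8.33 in the neu tumour of pair 2 and 6.89 to 6.98 in the other tumours. The macrophage list had medians of -0.18 and 0.39, with levels of 8.65 and 9.33 in Cdc25a;neu against 8.89 and 8.72 in neu, and the fibroblast list had medians of -0.37 and 0.00. Rb1, at -0.65 in pair 1 and 0.20 in pair 2, had the same sign as the macrophage median in each pair. The part of these cells in the ratios of Rb1 and of Rbl2 A_52_P117325 was not tested. The endothelial, lymphocyte and myoepithelial lists had medians between -0.04 and 0.12 in each pair.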

How the data were processed

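The authors' deposited scanner files hold, per the file headers, spot intensities (mean signal and local background in Cy3 and Cy5), processed signals, 0 or 1 flags, and log10 ratios of Cy5 over Cy3. Agilent Feature Extraction is version 7.2 in the submitters' processing notes and 7.5.1 in the file headers. The authors' deposited value table is on a natural log scale of Cy5 over Cy3, found from its slopes of 2.27 to 2.29 against the scanner's log10 ratio (2.30 expected). The labels and headers do not state its centring, and its values were used in 1 alternative. Column medians were 0.0209, 0.0007, 0.0209 and 0.0078.

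Intensities were background-corrected here (normexp, offset 50) and normalized by loess within arrays, without weight for control or flagged spots (9 to 87 per array). Swapped arrays were turned to Cdc25a;neu over neu, using the dyes in the labels, and the 2 arrays of a pair, which carry the same extracts, were averaged. A probe was kept if well above background in a channel on at least 2 of 4 arrays; 78.5% to 92.2% of spots were so in green and 82.7% to 87.9% in red. The number of arrays limits the precision. Pair means were tested against 0 with limma 3.58.1 in R 4.3.3 (two-sided, Benjamini-Hochberg at 0.05 over all probes), and 95% intervals come from that fit. Levels are log2 intensities after loess and Aquantile, averaged over both dyes of a tumour. Arrays correlated at 0.64 and 0.75 within pairs and 0.20 to 0.36 between pairs.

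Of the probes outside controls, 18392 were named by accession, 1524 by symbol and 961 by synonym in a RefSeq table (GRCm38.p6), and 20297 kept the array's name. The text names every member probe, Cdc25a, up to 4 genes per list with the largest mean ratio in size, and for a member at 1 or more in size with 1 sign on all arrays the 4 nearest named probes. Genes not measured, and further probes of named genes where they disagree, are named too. The members and lists were chosen with earlier results of these data known. The fit was also run on simulated pair ratios with the same SD for all probes. Spreads differ between probes here, so that run does not measure how the fit performs on these data. The files name no genome build, so no probe coordinates are given, and probe and protein sequences were not used here.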

Additional observations from a re-analysis of the deposited data

Results flagged for a closer look

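The E2f4 probe A_51_P157524 gave -0.21 on the array of pair 2 with Cdc25a;neu in Cy5, while the other 3 arrays lay between 0.02 and 0.07. The gap to the nearest array, as a share of the range, was larger than Dixon's 95% limit for 4 values. Chance passes that limit in about 1 of 20 groups of independent values. The arrays of a pair are not independent, so that rate does not hold here, and 14 probes were looked at.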

How the results depend on the processing

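With median centring in place of loess, 1109 probes passed the test, among them 1 member, Ccnd2 A_52_P514391 at 1.35 (limma adjusted p = 1.87e-13). As said above, that p leans on a variance pooled over all probes. Under that setting 1 member probe had 1 sign on all 4 arrays, where 4.56% of all probes were higher and 3.48% lower. The means of Ccnd2 A_51_P433228 (-0.001), Ccnd3 (0.03), Cdk6 A_51_P388310 (0.05) and E2f4 (0.04) changed sign. The authors' deposited value table reversed Ccnd2 A_51_P433228 (-0.06) and Ccnd3 (0.05). The cause was not tested. No other alternative passed any probe. Leaving out an array or a pair in turn gave means of -0.05 to 0.07 for Ccnd2 A_51_P433228, -0.09 to 0.03 for Ccnd3, -0.07 to 0.16 for Cdk4, -0.10 to 0.05 for Rbl2 A_51_P457113, -0.09 to 0.05 for E2f4, -0.65 to 0.20 for Rb1, -0.66 to 0.03 for Rbl2 A_52_P117325, -0.02 to 0.24 for Ccnd1 and -0.03 to 0.10 for Ccnd2 A_52_P53906, and 3 to 8 member probes with 1 sign on the arrays left. The share over all probes with 1 sign on the arrays left was not computed. Separate channels per tumour with the pair as replicate block passed 0 probes, as did the fit without it, and Ccnd2 A_52_P514391 had a limma adjusted p of 0.455 and 0.689 in turn. Over all alternatives, 21 of 236 member means had the sign opposite to the reported mean, 12 in settings with a test, where no probe concerned passed, and 9 with a pair left out, where no test was possible.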
